A study of Homo sapiens with 4 samples.

Results

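The p53 network was followed through 9 genes: MDM2, MDM4, ZMAT3, RRM2B, FDXR, DDB2, PHLDA3, TP53INP1 and GADD45A. They are regulators and DNA damage targets of p53 and were matched by symbol to the gene identifiers of the count files. All 9 were found among 57820 identifiers, and all 9 passed the filter on low counts, which left 17024 genes for testing. The cells were Daoy, an established human medulloblastoma line. Of the 4 libraries, 3 (WT1, WT2 and WT3) carry a wild-type label and 1 carries that of an shRNA against ARID1B, a subunit of BAF chromatin remodelling complexes; a short hairpin of this kind directs the degradation of its target mRNA. The hairpin sits in a lentiviral vector under doxycycline control in a polyclonal population, and every library is described as exposed to 1 µg/ml doxycycline for 72 h. The controls include parental cells and cells with empty vector, but no label tells which of WT1 to WT3 is which. The question put to these genes was whether p53 output, or another stress input, moved with the shRNA label.

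The transcription factor p53 is held low by MDM2, a ubiquitin ligase that p53 itself induces, and by MDM4, a related protein that covers its activation domain. After DNA damage, kinases such as ATM and CHEK2 release p53 from both, and it switches on genes for growth arrest, repair and cell death. Several of these genes also answer to other stresses, GADD45A and CDKN1A among them.

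Promoter windows of 250 bases before to 50 bases after the transcript start were taken from RefSeq (GRCh38.p14) for the 5 members with an entry: MDM2, MDM4, ZMAT3, FDXR and DDB2. GADD45A, PHLDA3, RRM2B and TP53INP1 had no entry. Shown are MDM2, the feedback gene of p53, FDXR, whose window was the only one of the 5 with a p53 half-site, and, for comparison, ASNS, a target of the stress factor ATF4 whose profile over the libraries ran close to that of GADD45A. Capitals mark matches to the p53 half-site, to TGATGNAA (the core of ATF4 response elements), to TGACGTCA (cyclic AMP response element), to TGANTCA (AP-1) or to CCAAT, searched on both strands.
MDM2 (chr12:68807922-68808221, plus strand): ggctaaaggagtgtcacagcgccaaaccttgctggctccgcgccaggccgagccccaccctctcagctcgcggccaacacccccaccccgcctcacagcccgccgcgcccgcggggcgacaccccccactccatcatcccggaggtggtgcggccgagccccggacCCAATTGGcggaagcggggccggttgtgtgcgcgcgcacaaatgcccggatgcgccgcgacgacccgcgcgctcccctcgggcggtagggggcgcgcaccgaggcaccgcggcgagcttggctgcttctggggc
FDXR (chr17:74872945-74873244, minus strand): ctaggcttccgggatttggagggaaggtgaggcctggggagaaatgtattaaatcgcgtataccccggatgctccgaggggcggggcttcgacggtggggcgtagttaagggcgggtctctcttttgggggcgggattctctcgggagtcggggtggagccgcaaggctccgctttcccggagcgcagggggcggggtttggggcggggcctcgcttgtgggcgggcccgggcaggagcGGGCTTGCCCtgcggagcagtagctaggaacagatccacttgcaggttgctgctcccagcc
ASNS (chr7:97872359-97872658, minus strand): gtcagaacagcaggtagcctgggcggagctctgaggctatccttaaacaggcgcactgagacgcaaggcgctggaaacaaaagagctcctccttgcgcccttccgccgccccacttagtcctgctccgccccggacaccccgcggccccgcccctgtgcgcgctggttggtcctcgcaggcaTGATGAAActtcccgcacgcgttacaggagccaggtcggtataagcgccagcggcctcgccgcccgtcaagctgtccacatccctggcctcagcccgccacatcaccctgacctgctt
The half-site of FDXR matches on both strands and runs from 11 to 2 bases before the start; 6.63% of 35116 promoter windows of the same length hold such a half-site. The MDM2 window held overlapping CCAAT matches on opposite strands and no other motif of the search. Its known p53 elements lie in the first intron, outside the window. ASNS held 1 TGATGNAA match, found in 3.62% of windows, from 68 to 61 bases before the start. The windows of DDB2 and ZMAT3 held CCAAT matches only (34.6% of windows), and that of MDM4 held none of the 5 motifs. TGACGTCA and TGANTCA, present in 1.85% and 7.71% of windows, were found in none of the 5 members. A match is a string of letters and not a measured binding site.

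The libraries held 8792848 reads in genes for the library labelled ARID1B shRNA and 12619786 to 15390106 for wild type. The shRNA arm had no replicate. The p-values rest on the spread among WT1 to WT3. Separate cultures are not stated, so that spread may be partly technical. It may also hold differences between parental and empty-vector cells, which the labels do not separate. Any batch that set the fourth library apart cannot be told apart from its label. ARID1B itself, the check of the label, stood at 174 CPM (reads of a gene per 1000000 reads in genes) there, while WT1, WT2 and WT3 had 168, 86.1 and 72.8 CPM, so that the mRNA was not lower under the shRNA label (log2 fold change 0.69, edgeR adjusted p = 0.399; 1.12 and 0.026 without WT1). Of 14 neural and cerebellar markers 11 were tested and edgeR called 0 (2 at an unadjusted p below 0.05, 0 by DESeq2 or limma-voom), with summed levels of 127, 91.0 and 124 CPM in WT1 to WT3 and 128 CPM in the remaining library. ATOH1, which marks cerebellar granule cell precursors, had 0 counts in every library, and the neuronal NEUROD1 and glial GFAP stayed below 1 CPM, as did the summed level of 4 immune markers (0.520 CPM at most). The epithelial keratins KRT8 and KRT18 were present and EPCAM and CDH1 were at 1.74 CPM or less in every library; none of the 3 tested epithelial markers was called by edgeR (0 at an unadjusted p below 0.05, 0 by DESeq2 or limma-voom). The summed level of 5 mesenchymal markers was 25815, 31565 and 31695 CPM in WT1 to WT3 but 15197 CPM under the shRNA label. Most of that sum was FN1 (19329, 26210 and 24116 against 10719 CPM, edgeR adjusted p = 0.0593). VIM alone of the 5 was called, and fell (2.68-fold, edgeR adjusted p = 0.0213; 0.0567 without WT2), COL1A2 lay below its wild-type range without a call, and COL1A1 and THY1 lay inside theirs. DESeq2 called 3 of the 5, all lower, and limma-voom 1, where they called 1775 and 819 of the 17024 tested genes. Unadjusted edgeR p-values below 0.05 were found for 3 of the 5, all lower, and for 25.4% of all tested genes. The part of that shift in the results was not tested. In bulk RNA, fewer cells of a type and less RNA per cell cannot be told apart.

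Of the 9 genes 1 rose and 8 were not called. The rising gene was GADD45A (ENSG00000116717.7), whose protein binds PCNA and cyclin-dependent kinase 1 and activates the kinase MAP3K4 after damage or stress. Its level was 13.8, 13.6 and 15.6 CPM in WT1, WT2 and WT3, while the library labelled ARID1B shRNA had 66.6 CPM (586 counts, exact 95% Poisson interval 61.4 to 72.3 CPM). The wild-type libraries lay within 1.15-fold of each other, and the remaining library stood far above all of them. The increase was 4.65-fold (log2 fold change 2.22, SE 0.20, edgeR adjusted p = 0.0181). Among all tested genes 4.48% were called, 3.65% as higher and 0.834% as lower. The call held without each wild-type library in turn, most narrowly without WT2 (edgeR adjusted p = 0.0490), and after a correction in which the dependence of every library on GC content and transcript length was taken out (2.26, edgeR adjusted p = 0.0146). After that correction GADD45A was again the 1 gene of the 9 to be called, where 2.80% of all tested genes were called, 1.98% as higher and 0.816% as lower. The call was lost when the correction was combined with leaving out WT3 (2.31, edgeR adjusted p = 0.0756), a setting under which 0 of all tested genes were called.

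**Figure D1:**
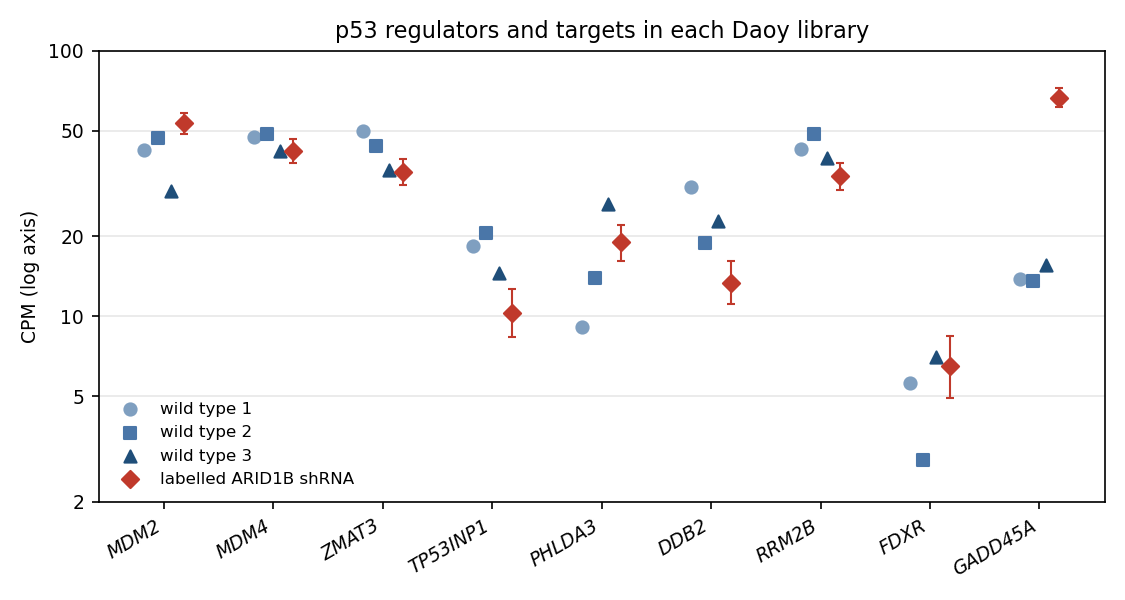
CPM of the 9 genes in each library on a log axis; circles, squares and triangles are wild-type libraries 1, 2 and 3, and red diamonds the library labelled ARID1B shRNA with its exact 95% Poisson interval. GADD45A at 66.6 CPM stands apart from its wild-type values of 13.6 to 15.6 CPM. Of the other genes, MDM2 lies above its wild-type range, 5 lie below theirs and 2 inside, none of them called.

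The library labelled ARID1B shRNA lay above all wild-type libraries for 2 of the 9 genes, GADD45A and MDM2, below all of them for 5, and within their range for 2. Over all tested genes 35.2% lay above, 37.7% below and 73.0% outside the wild-type range, so values just outside that range were common. The median log2 fold change of the 9 genes was -0.13, against -0.05 over all tested genes. Unadjusted p-values fell below 0.05 for 3 of the 9 genes, GADD45A, DDB2 and TP53INP1, and for 25.4% of all tested genes. DESeq2 and limma-voom each called 1 of the 9 genes, as edgeR did. Over all 17024 tested genes, DESeq2 called 1775, limma-voom 819 and edgeR 763.

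Neither of the regulators of p53 among the 9 genes was called. MDM2 (ENSG00000135679.17) stood at 42.3, 47.0 and 29.6 CPM in WT1 to WT3, and at 53.5 CPM under the shRNA label. It was highest there, but the distance to WT2 was smaller than that between WT2 and WT3. The log2 fold change was 0.43 (SE 0.30, edgeR adjusted p = 0.402) and 0.83 after the GC correction (SE 0.23, edgeR adjusted p = 0.119). MDM4 (ENSG00000198625.8) measured 47.2, 48.4 and 42.1 CPM against 41.9 CPM, so that the library labelled ARID1B shRNA all but coincided with WT3 (log2 fold change -0.13, SE 0.20, edgeR adjusted p = 0.715). Within a library, the ratio of MDM2 to MDM4 counts was 0.896, 0.972 and 0.702 in WT1 to WT3 but 1.28 in the remaining library. Ratios were not tested. In the RefSeq annotation MDM2 overlaps the gene of carboxypeptidase M and MDM4 a pseudogene, and the strand setting of the counting is not given in the sources used here, so reads shared by both are uncertain.

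Of the 2 repair genes among the 9, DDB2 was the lowest relative to wild type. DDB2 (ENSG00000134574.7), the damage-binding subunit that finds ultraviolet lesions for nucleotide excision repair, measured 30.8, 18.9 and 22.9 CPM in WT1 to WT3 and 13.4 CPM under the shRNA label (118 counts, exact 95% Poisson interval 11.1 to 16.1 CPM). The value lay below each wild-type library, and WT1 stood well above the other two. The log2 fold change was -0.84 (SE 0.33, unadjusted p = 0.0439, edgeR adjusted p = 0.185), and over 15 alternative settings the adjusted p ran from 0.0560 to 0.299. RRM2B (ENSG00000048392.7), the p53-inducible small subunit of ribonucleotide reductase that supplies nucleotides outside S phase, measured 42.7, 48.6 and 39.6 CPM against 33.8 CPM. It too was lowest under the shRNA label, by a difference that was not called (log2 fold change -0.37, SE 0.23, edgeR adjusted p = 0.355). Its S-phase counterpart RRM2 had a log2 fold change of 0.02 (edgeR adjusted p = 0.968) and the large subunit RRM1 one of -0.33 (0.348). DDB1, the partner of DDB2 in the CUL4 ubiquitin ligase, had -0.27 (edgeR adjusted p = 0.343). The ratio of RRM2B to RRM2 counts was 0.138, 0.121 and 0.149 in WT1 to WT3 and 0.102 under the shRNA label, and that of DDB2 to DDB1 was 0.0661, 0.0461 and 0.0559 with 0.0378, so both ratios lay below the wild-type range.

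The remaining members act in cell death, growth control and metabolism. TP53INP1 (ENSG00000164938.9), which promotes p53-driven cell death and autophagy, measured 18.4, 20.5 and 14.6 CPM in WT1 to WT3 and 10.3 CPM under the shRNA label. That value lay under the wild-type range, with a log2 fold change of -0.78 (SE 0.31, unadjusted p = 0.0453, edgeR adjusted p = 0.188). The gene overlaps NDUFAF6, so that shared reads are uncertain. ZMAT3 (ENSG00000172667.6), an RNA-binding zinc finger protein that takes part in growth suppression by p53, measured 49.9, 43.8 and 35.7 CPM against 34.9 CPM, next to WT3 (log2 fold change -0.30, SE 0.25, edgeR adjusted p = 0.487). PHLDA3 (ENSG00000174307.5), which blocks the kinase AKT at the membrane, varied most among the wild-type libraries. It measured 9.11, 13.9 and 26.5 CPM there, a 2.91-fold spread, and 19.0 CPM under the shRNA label, between WT2 and WT3 (log2 fold change 0.20, SE 0.60, edgeR adjusted p = 0.867). FDXR (ENSG00000161513.7), the mitochondrial ferredoxin reductase, was the lowest in CPM, at 5.63, 2.87 and 7.02 against 6.48. With 38 to 108 counts in each library, FDXR had an SE of 0.52 about a log2 fold change of 0.33 (edgeR adjusted p = 0.725).

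Set on a common scale per kilobase of the longest annotated transcript, GADD45A led the 9 genes in wild type at 9.58 ± 0.735 CPM per kilobase (SD, n = 3), followed by RRM2B at 8.85 ± 0.925, DDB2 at 7.81 ± 1.96 and PHLDA3 at 6.25 ± 3.40. Each of these differed from its neighbour by less than the larger of their SDs. ZMAT3 and MDM4 followed at 4.58 ± 0.760 and 4.56 ± 0.332 CPM per kilobase, TP53INP1 and MDM2 at 3.16 ± 0.527 and 3.14 ± 0.715, and FDXR closed the order at 2.08 ± 0.850. The steps from MDM4 to TP53INP1 and from MDM2 to FDXR were larger than either SD. In the library labelled ARID1B shRNA, GADD45A stood at 44.5 CPM per kilobase and the next gene, PHLDA3, at 7.19. The transcripts in use need not be the longest ones, so the order is approximate. Setting each wild-type library against the remaining pair by edgeR called 0 of the 9 genes, beside 2.37% of all genes for WT1 and 0 for WT2 and WT3. Unadjusted p-values of edgeR below 0.05 were found for PHLDA3 in WT1 and WT3 (log2 fold changes -1.21 and 1.18) and for FDXR in WT2 (-1.06); the smallest adjusted p among the 9 genes was 0.134, for PHLDA3 in WT1.

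GC content moved with the comparison. The 500 tested genes nearest to FDXR in GC content (61.8%) had a median log2 fold change of 0.94, and those nearest to PHLDA3 (59.6%) one of 0.52. For the genes of low GC content that median was below 0: it was -0.23 for MDM2 (41.9%) and -0.28 for TP53INP1 (39.6%). GADD45A, at 51.5%, had neighbours with a median of 0.04, and DDB2, at 51.9%, of 0.02. After the correction, FDXR went from 0.33 to -0.57, PHLDA3 from 0.20 to -0.37 and MDM4 from -0.13 to 0.21, turning direction without a call before or after (edgeR adjusted p = 0.423, 0.719 and 0.426). GADD45A, DDB2 and TP53INP1 went to 2.26, -0.92 and -0.52, with the same sign as before.

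**Figure D2:**
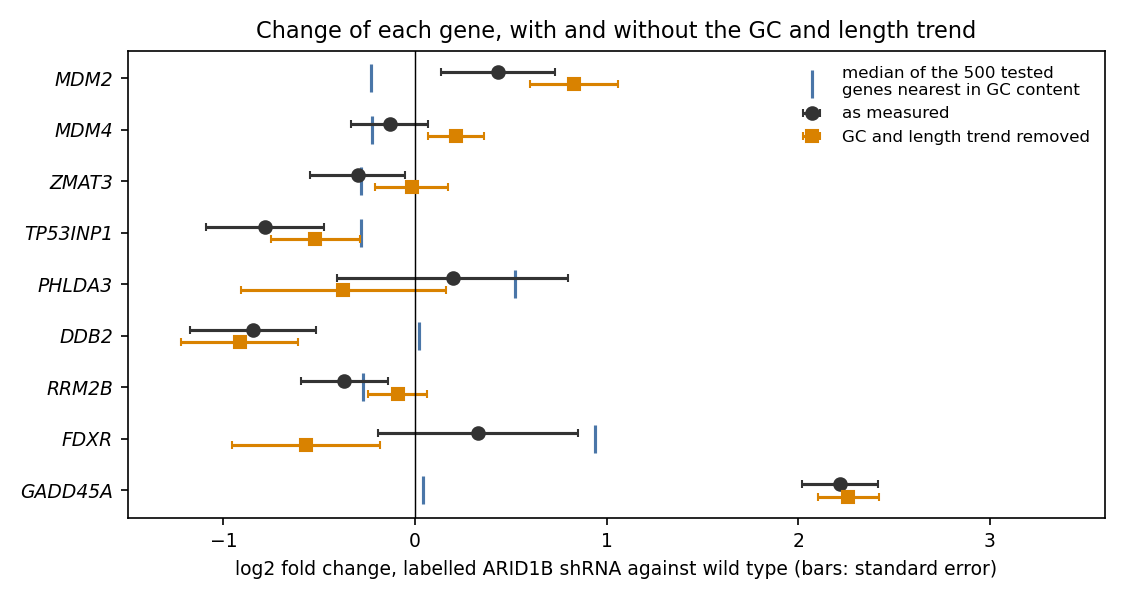
Log2 fold change of each of the 9 genes with its standard error, as measured (circles) and after the correction for GC content and length (squares); vertical ticks give the median of the 500 tested genes nearest in GC content. GADD45A stays at 2.22 and 2.26 in both forms, and FDXR, PHLDA3 and MDM4 change sign.

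**Figure D3:**
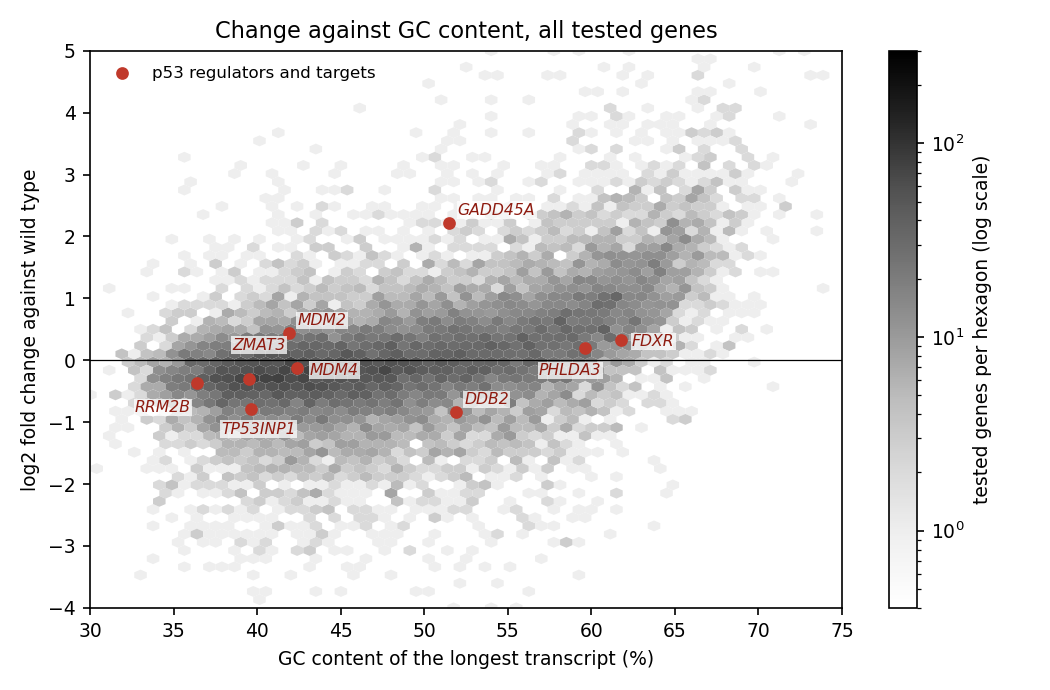
Log2 fold change against GC content of the longest transcript for all tested genes with a known GC content within the axes drawn (grey hexagons, darker for more genes) and for the 9 genes (red points). The cloud rises at high GC content; GADD45A lies above its bulk at 2.22, whereas FDXR lies below its neighbours, whose median is 0.94.

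Relatives of GADD45A and PHLDA3 gave 2 further calls. Of 15 tested paralogues and partners of the 9 genes, 2 rose and 13 were not called, a share of 13.3% against 4.48% of all tested genes. GADD45B, a stress-induced relative of GADD45A, measured 3.41, 4.46 and 6.43 CPM in WT1 to WT3 and 25.6 CPM under the shRNA label (log2 fold change 2.42, SE 0.37, edgeR adjusted p = 0.0326; 0.0735 without WT2). PHLDA2, an imprinted gene of the same family as PHLDA3, went from 0, 0.680 and 0.585 CPM to 20.1 CPM (edgeR adjusted p = 0.0354). That call was lost without WT2 (0.0771), without WT3 (0.124), with DESeq2 (0.109) and after the GC correction (0.0720). GADD45G, the third of its family, measured 0.396, 3.70 and 2.21 CPM against 8.53 CPM and was not called (edgeR adjusted p = 0.247). None of the partners in repair and metabolism was called. PCNA, the sliding clamp that GADD45A binds, had a log2 fold change of -0.53 (edgeR adjusted p = 0.122), the ligase scaffolds CUL4A and CUL4B had 0.12 and -0.69 (0.680 and 0.133), and FDX1, the ferredoxin that FDXR reduces, had 0.35 (0.446). PHLDA1 and TP53INP2, further paralogues, had 0.70 and -0.46 (edgeR adjusted p = 0.343 and 0.345). The ratio of GADD45A to GADD45B counts was 4.05, 3.05 and 2.42 in WT1 to WT3 and 2.60 under the shRNA label, inside the wild-type range. The count of calls in this list was 0 without WT2 and 1, GADD45B, without WT3. Over all tested genes these settings called 157 and 478, against 763 in the main fit.

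A wider list of 40 genes that p53 activates directly was then read in the same fit. Of 37 tested, 5 rose and none fell, 13.5% against 4.48% of all tested genes. The 5 were CDKN1A, GDF15, SESN2, E2F7 and BBC3. CDKN1A, which encodes the cyclin-dependent kinase inhibitor p21, rose 5.20-fold, from 68.6, 84.9 and 48.3 CPM to 350 CPM (edgeR adjusted p = 0.0274), and the call was lost after the GC correction (log2 fold change 1.93, edgeR adjusted p = 0.108). The ratio of CDKN1A to MDM2 counts was 1.62, 1.81 and 1.63 in WT1 to WT3 and 6.54 under the shRNA label, above all of them. That ratio was not tested and is not corrected for GC content, which was 58.1% for CDKN1A and 41.9% for MDM2. The log2 fold changes of CDKN1A and MDM2 were 2.38 and 0.43 as measured. After the GC correction they lay closer together, at 1.93 and 0.83, and neither gene was called. E2F7, a repressor of cell cycle genes, rose 4.04-fold, from 48.1, 53.5 and 61.8 CPM to 220 CPM (edgeR adjusted p = 0.0183; 0.0168 after the GC correction).

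GDF15, a secreted stress cytokine, and SESN2, a brake on mTORC1, rose by 7.56 and 4.31 on the log2 scale (edgeR adjusted p = 0.0149 and 0.0174; SESN2 0.0510 without WT2). Both are known targets of the integrated stress response as well as of p53, as are BBC3 and GADD45A. BBC3, which encodes the pro-death protein PUMA, rose from 1.51, 0.832 and 1.88 CPM to 12.5 CPM (3.14 on the log2 scale, edgeR adjusted p = 0.0289). The call of BBC3 sat at its threshold without WT2 (0.05) and WT3 (0.0502), and its change was 0.58 after the GC correction (edgeR adjusted p = 0.336); the 500 genes nearest to it in GC content had a median of 1.94.

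Other targets of the list lay on either side of 0 without a call. At an unadjusted edgeR p below 0.05 were 17 of the 37, 12 higher and 5 lower, beside 25.4% of all tested genes. PIDD1, PMAIP1, AEN and TNFRSF10B lay above every wild-type library. Their log2 fold changes were 2.18, 1.82, 1.33 and 1.29 (edgeR adjusted p = 0.0789, 0.157, 0.0824 and 0.101). After the GC correction PIDD1 had 0.34. BAX, a pore-forming death protein, had a log2 fold change of 0.20 (edgeR adjusted p = 0.576), and RPS27L and TIGAR had 0.06 and -0.34 (0.879 and 0.370). The phosphatase gene PPM1D, which shuts p53 signalling off, had -0.06 (edgeR adjusted p = 0.917). The death receptor gene FAS measured 22.7, 56.8 and 52.2 CPM in WT1 to WT3 and 10.9 CPM under the shRNA label (log2 fold change -2.01, edgeR adjusted p = 0.139; 0.00493 without WT1), below each wild-type library. SESN1, which like SESN2 belongs to this list of p53 targets, measured 11.1, 10.1 and 9.29 CPM against 6.26 CPM (log2 fold change -0.70, edgeR adjusted p = 0.215). SESN2 rose, as given above. In all, 23 of the 37 had a positive log2 fold change and 14 a negative one, with a median of 0.37 as measured and 0.26 after the GC correction. The count of calls was 3 without WT2 (CDKN1A, GDF15 and E2F7), 3 after the correction (SESN2, GDF15 and E2F7) and 11 with DESeq2. Without WT1 it was 10, the 5 genes above together with PMAIP1, TNFRSF10B, LIF, PLK2 and FAS. Over all tested genes the same settings called 157, 476, 1775 and 1189 genes, in that order, against 763 in the main fit.

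Among 22 tested genes of the p53 family and of proteins that control it, 1 rose and 1 fell. That is 9.09% of the list, against 4.48% of all tested genes (3.65% higher and 0.834% lower). TP63, the p53 family member of epithelial progenitors, fell from 18.9, 25.6 and 19.6 CPM to 4.32 CPM (log2 fold change -2.30, SE 0.35, edgeR adjusted p = 0.0326). The coactivator gene CREBBP, whose product acetylates p53, rose from 71.2, 67.9 and 72.3 CPM to 142 CPM (1.01 on the log2 scale, edgeR adjusted p = 0.0326). TP63 was lost without WT2 (0.0565) and WT3 (0.0661), and so was CREBBP (0.0652 and 0.0667), which also missed after the GC correction (0.0833). USP7, which removes ubiquitin from MDM2 and p53, and COP1, another ubiquitin ligase of p53, had values of -0.02 and -0.08 on the log2 scale (edgeR adjusted p = 0.946 and 0.802). HIPK2, PPP1R13L and TP73 lay above every wild-type library without a call. Their log2 fold changes were 1.155, 1.883 and 1.039 (edgeR adjusted p = 0.0611, 0.0615 and 0.155), and 1.349, 0.16 and 0.08 after the GC correction. Of the 22, 12 had a positive log2 fold change and 10 a negative one. CDKN2A, whose p14ARF product restrains MDM2, was at 0.260 CPM or less in wild type and at 0 counts under the shRNA label, too low to test.

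Of 23 genes for damage sensors, kinases and mediators 1 rose, H2AX, the histone variant phosphorylated around double-strand breaks. That is 4.35% of the list, near the 4.48% called among all tested genes. H2AX measured 11.8, 10.8 and 14 CPM in WT1 to WT3 and 55.4 CPM under the shRNA label (log2 fold change 2.18, edgeR adjusted p = 0.0183). After the GC correction the change of H2AX was 0.36 (edgeR adjusted p = 0.377), and the 500 genes nearest to it in GC content had a median of 1.82. The kinase genes ATM, ATR, CHEK1 and CHEK2 had log2 fold changes of -0.45, -0.66, -0.39 and -0.17, none of them called (edgeR adjusted p = 0.228, 0.125, 0.344 and 0.690). Of the 23, 18 had a negative log2 fold change, with a list median of -0.24, and of -0.05 after the GC correction. H2AX overlaps DPAGT1, and CDKN1A the noncoding gene DINOL, so that shared reads are uncertain for both. Kinase activity and histone phosphorylation are not measured by RNA. In nucleotide excision repair edgeR called 0 of 20 genes, beside 4.48% of all tested genes, DESeq2 called 1 and limma-voom 0. At an unadjusted edgeR p below 0.05 were 4 of the 20, a smaller share than the 25.4% of all tested genes. XPC, the p53-inducible partner of DDB2 in lesion recognition, measured 36.4, 31.1 and 33.5 CPM against 22.5 CPM (log2 fold change -0.57, edgeR adjusted p = 0.173), below each wild-type library as DDB2 was.

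Active p53 lowers a set of cell cycle genes through p21 and the DREAM repressor complex. Of 25 such genes edgeR called 0, with 5 at an unadjusted p below 0.05 (4 lower and 1 higher) and 0 calls by DESeq2 or limma-voom. Among all tested genes 4.48% were called and 25.4% had an unadjusted p below 0.05, a larger share than in the list. Their median log2 fold change was -0.34, and -0.28 after the GC correction, beside -0.05 and -0.04 over all tested genes. CDK1, the mitotic kinase, measured 130, 124 and 113 CPM in WT1 to WT3 and 78.1 CPM under the shRNA label (log2 fold change -0.64, edgeR adjusted p = 0.0992). Its phosphatase gene CDC25C had -0.81 (edgeR adjusted p = 0.108) and TOP2A, the topoisomerase of dividing cells, -0.73 (0.173). Each of these 3 genes lay below all wild-type libraries. MYBL2, which drives the same programme, lay above all of them (log2 fold change 0.88, edgeR adjusted p = 0.127). After the GC correction MYBL2 had 0.15 (edgeR adjusted p = 0.616). CDK1, CDC25C and TOP2A then had -0.395, -0.684 and -0.466, again without a call.

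For the stress input, a list of 23 genes of the integrated stress response, which the factor ATF4 directs when amino acids or protein folding fail, was set beside the p53 lists. Of these 21 rose and none fell, beside 3.65% and 0.834% of all tested genes. All 23 lay above the wild-type range, as did 35.2% of all tested genes. The median log2 fold change was 2.31 (2.37 after the GC correction, where 19 rose). The list was chosen with earlier results of these data known, so its share of calls is not an independent test. Within that list, the phosphatase regulator gene PPP1R15A, also called GADD34, went from 39.6, 41.8 and 35.8 CPM to 438 CPM (edgeR adjusted p = 0.0146). ASNS, asparagine synthetase, went from 64.8, 65.1 and 68.8 CPM to 329 CPM, and PHGDH, which opens the serine pathway, from 153, 150 and 179 CPM to 731 CPM (both edgeR adjusted p = 0.0149). In both genes the wild-type values were close together, as in GADD45A. The pseudokinase gene TRIB3 and the amino acid transporter genes SLC7A5 and SLC3A2 had log2 fold changes of 4.73, 4.05 and 2.33, with edgeR adjusted p-values of 0.0149, 0.0150 and 0.0149. ATF4 itself rose (log2 fold change 1.53, edgeR adjusted p = 0.0183). DDIT3, which encodes CHOP and is also known as GADD153, rose 3.65-fold (edgeR adjusted p = 0.0274; 0.0565 without WT2). The count of calls in the list was 12 without WT2, a setting that called 157 of all tested genes. Over the 4 libraries, the genes with log2 CPM profiles nearest to that of GADD45A, among 10338 compared after centring each gene on its own mean, were PHGDH (distance 0.0483 log2 units), ASNS (0.123) and H2AX (0.130). PHGDH and ASNS belong to the stress list. With 4 libraries, such a distance rests mostly on how far the library labelled ARID1B shRNA lies from the others.

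**Figure D4:**
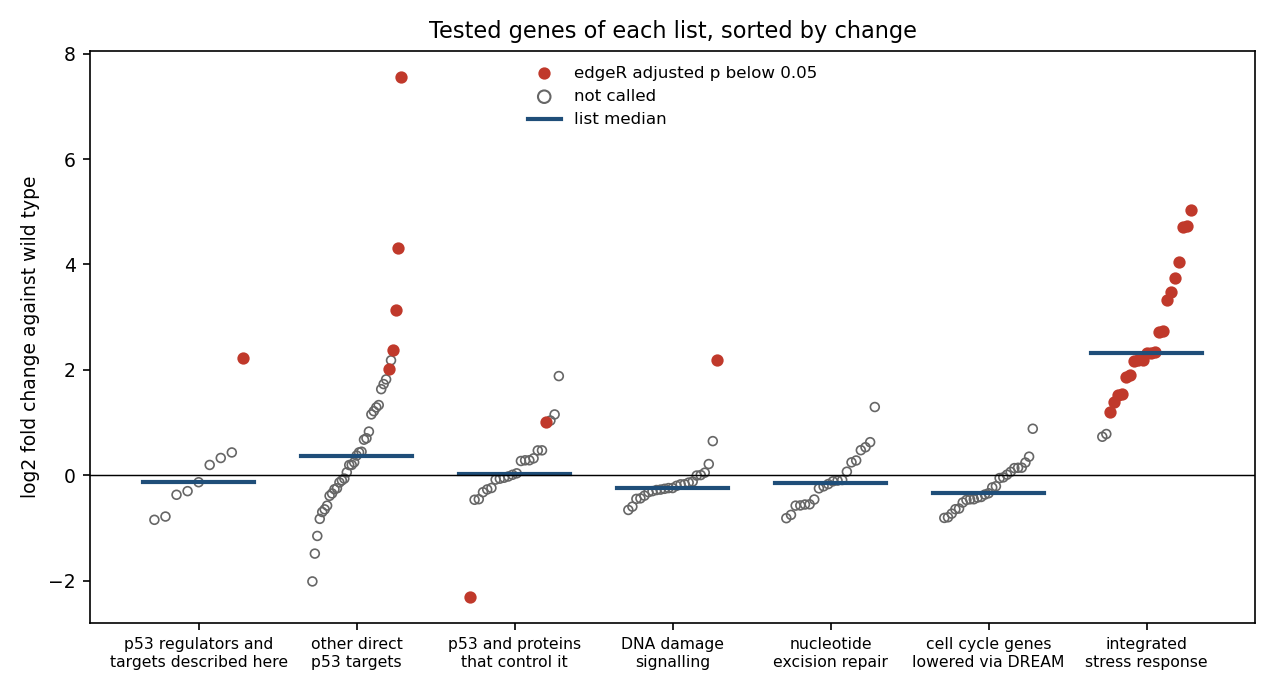
Log2 fold change of each tested gene by list, sorted within a list; filled points passed an edgeR adjusted p of 0.05, open points did not, and bars mark the list medians. The 9 genes have 1 filled point and a median of -0.13, the other p53 targets 5 of 37 and 0.37, and the integrated stress response 21 of 23 and 2.31. Among all tested genes 4.48% were called. All lists were chosen with earlier results of these data known.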

How the data were processed

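RNA was measured in 4 libraries of Daoy cells, 3 labelled wild type and 1 labelled ARID1B shRNA, read from poly(A) RNA as single reads of 100 nucleotides. The authors deposited raw read counts for each gene and library. The tools named in the submitters' processing notes are HISAT2, HTSeq, bcl2fastq and DESeq2, on GRCh37 (hg19); strand setting, annotation release and versions: not given in the sources used here. Lines naming no gene, 19.6% to 22.2% of each file's reads, were left out. Of 57820 identifiers 89.9% matched the symbol table without their version. GC content and transcript length came from GENCODE transcripts of GRCh38, so no gene coordinates are given in the authors' build. All pairs of libraries differed by more than sampling noise (lowest chi-square per degree of freedom 23.1).

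Counts were tested with edgeR 4.0.16 in R 4.3.3: filterByExpr (minimum count 10, minimum total 15), TMM scaling, and glmQLFit with robust shrinkage and glmQLFTest, with 2 residual degrees of freedom. These come from wild type alone, and the single library is assumed to vary likewise. Benjamini-Hochberg adjustment ran over the 17024 genes, with a threshold of 0.05; no set test was run. CPM values use the total of reads in genes, and fold changes the TMM scaling. The SE is the log2 fold change divided by the square root of F. Poisson intervals cover counting error only. The procedure was also run on simulated counts, which held no GC trend and gave the single library the same dispersion as wild type. That run cannot show how the calls hold where these conditions fail. Alternatives were DESeq2 1.42.0, limma-voom (limma 3.58.1), upper-quartile or RLE scaling, fits lacking the filter or the robust shrinkage, genes with mean counts of 50 or more, omission of WT1, WT2 or WT3 in turn, and the GC correction, which subtracts from every library a loess trend (span 0.3, fitted to genes averaging 20 counts or more) on GC content and length. Added after the data had been seen were edgeR's later quasi-likelihood method and the GC correction together with omission of a library. The 9 genes and all lists were chosen with earlier results of these data known. Named were the 9 genes, their partners, up to 6 called genes of each list with the smallest p, core p53 regulators, and the 3 genes nearest in profile (mean log2 CPM of at least 3) to each called member; genes without a call were named from the lists after their values were seen. Results for 1 gene covered by that rule are left out here.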

Additional observations from a re-analysis of the deposited data

How the results depend on the processing

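No paired analysis was possible because the shRNA arm holds 1 library, so that the groups share fewer than 2 replicate numbers. Of 763 genes called over all, the count became 1775 with DESeq2, 3226 with no filter and 476 after the GC correction, ran from 157 (without WT2) to 1189 (without WT1) when a wild-type library was left out, and from 0 (without WT3) when that was joined to the correction, with 79 without WT2. Of the 9 genes the count stayed at 1 except for 0 under the correction without WT3. Over the lists the total of 31 became 55 with no filter, 16 (without WT2) to 37 (without WT1) with a library left out, and 14 and 0 under the correction without WT2 and WT3. The paralogues and partners, 2 called, gave 6 with no filter, 1 with DESeq2, a mean count of at least 50 or the correction, 0 (without WT2) to 2 (without WT1) with a library left out, and 0 to 2 with the correction as well. The p53 targets, 5 called, gave 11 with DESeq2, 13 with no filter, 3 after the correction, 3 (without WT2) to 10 (without WT1) with a library left out, and 0 (without WT3) to 7 (without WT1) with the correction as well. The p53 regulators, 2 called, gave 4 with DESeq2 or no filter, 1 after the correction, 0 (without WT2 or WT3) to 3 (without WT1) with a library left out, and 0 (without WT3) to 1 with the correction as well. Damage signalling, 1 called, gave 2 with no filter and 0 after the correction. Nucleotide excision repair, 0 called, gave 1 with DESeq2 and 3 with no filter. The DREAM list, 0 called, gave 6 with no filter and 1 under the correction without WT1. The stress list, 21 called, gave 12 without WT2, and 10 and 0 under the correction without WT2 and WT3. A library left out leaves 1 residual degree of freedom.

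Among 43 single genes and 643 alternative values, 532 kept direction and call, 96 kept direction and lost the call, 1 (ARID1B without WT1) gained it and 14 turned direction. MDM4 turned to 0.21 after the correction and to 0.23, 0.23 and 0.17 with WT1, WT2 or WT3 left out as well. ZMAT3 turned to 0.085 under the correction without WT1. FDXR turned to -0.57, and to -0.49, -0.75 and -0.46 with WT1, WT2 or WT3 left out. PHLDA3 turned to -0.37 after the correction and to values of -0.666, -0.366 and -0.033 with a library left out as well; without the correction it ran from -0.101 (without WT1) to 0.71 (without WT3). None of the 4 genes was called by edgeR under any of these settings, and the cause of each turn was not tested. FDXR had the lowest counts of the 9 genes, 38 to 108 in each library, and PHLDA3 the largest SE, 0.60.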
